A study of Homo sapiens with 6 samples.

Results

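Ubiquitin-specific proteases, the USP genes, are the largest family of enzymes that take ubiquitin off proteins. Their members were chosen by name and type alone: protein-coding rows of the gene table whose symbol starts with USP and a number, 79 of the 58735 genes listed. One of the 79, USP6NL, carries such a symbol but encodes a GTPase-activating protein for Rab proteins and is not a protease, so 78 rows name USP enzymes or their relatives. RNA was measured after 48 h with celastrol (3 libraries) or with DMSO (3 libraries) in SKM-1, an established human line labelled as acute myeloid leukaemia. Celastrol is a triterpenoid of the thunder god vine and DMSO is its solvent control. The sources used here give neither its dose nor whether libraries came from different cultures, so the p-values reflect library-to-library spread that may be technical alone.

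USP enzymes are cysteine proteases that cleave the bond between ubiquitin and a target, or between the ubiquitins of a chain. They oppose the ubiquitin ligases, and through their targets they take part in protein breakdown by the proteasome, histone ubiquitination, DNA repair and receptor sorting. RNA levels do not report on enzyme activity or on protein amount.

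The libraries held 13549187 to 16231066 reads on listed genes. Mitochondrial genes took 1.37 to 1.85% of reads with celastrol and 5.44 to 5.65% with DMSO. Of 13 myeloid and monocytic markers, 5 reached a mean of 1 FPKM (fragments scaled by the authors for gene length and library size), among them SPI1 and PTPRC, while MPO, CSF1R, CD68, CD4 and CD14 lay below 1 FPKM on average in both groups. All 12 erythroid markers reached it. The erythroid markers summed to 533 to 589 FPKM per celastrol library and 691 to 708 per DMSO library. In the test 8 of 12 were lower and 0 higher, against 14.2% and 15.3% of all genes tested, and 0 were at zero throughout. The 13 myeloid markers summed to 41.5 to 45.3 and 36.0 to 42.8 FPKM, with 1 of 5 tested lower (ITGAM, log2 fold change -0.78, adjusted p = 0.00721). Of 8 epithelial or stromal markers, EPCAM was the one tested and fell from 32.0 ± 1.79 to 15.6 ± 0.744 FPKM (adjusted p = 0.000163), and KRT5, KRT14 and the lymphoid marker MS4A1 were listed at 0. Several myeloid and monocytic markers lay below 1 FPKM beside abundant erythroid genes, a pattern that the label of the line does not lead one to look for. Yet 5 of the 13 reached 1 FPKM, and 0 of the 13 were at 0 in every library. The identity of the line was not tested. The part of these marker shifts and of the mitochondrial share in the values below was not tested. In bulk RNA, fewer cells of a type and less RNA per cell cannot be told apart.

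Of the 79 members, 44 had a mean of at least 1 FPKM over the 6 libraries and were tested with limma on log2(FPKM + 0.1), a scale that understates changes of low genes. The family moved little: 1 member passed as higher with celastrol (USP12) and 4 as lower (USP22, USP44, USP49 and USP2), at a Benjamini-Hochberg adjusted p under 0.05. That is 2.27% higher and 9.09% lower, or 11.4% in either direction, against 15.3% higher, 14.2% lower and 29.5% in either direction of all 12685 genes tested. No tested member changed by 2-fold or more, against 4.98% of all genes tested. The median size of the log2 fold change, without its sign, was 0.11 for the members and 0.24 for all genes tested. Medians with sign were -0.05 and 0.02. Members had a median of 915 reads per library and all genes tested 504, and more reads give less counting error.

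These counts depend on how libraries are scaled. Higher genes made up 52.0% of all calls as deposited, 70.0% when scaled to listed reads, 71.4% with limma-voom and 86.6% under TPM, a unit whose values have the same sum in every library. The all-gene median went from 0.02 to 0.12 on the log2 scale with listed reads as the total and to 0.26 under TPM, so small differences are relative to that median. The members' median lay 0.07 below the median of all genes in the deposited FPKM and under each of these scalings. Under TPM 13 members passed as higher and 0 as lower, or 29.5% in either direction against 47.9% of all genes tested. Scaled to listed reads 4 passed as higher (USP11, USP12, USP38 and USP9X) and 0 as lower. That is 9.09% against 34.0% of all genes tested. Single libraries mattered as well. No member passed without celastrol replicate 2, celastrol replicate 3 or DMSO replicate 3, where limma gave 7, 8 and 5 members at an unadjusted p under 0.05. In those fits 17.8%, 19.8% and 16.6% of all genes passed.

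**Figure D1:**
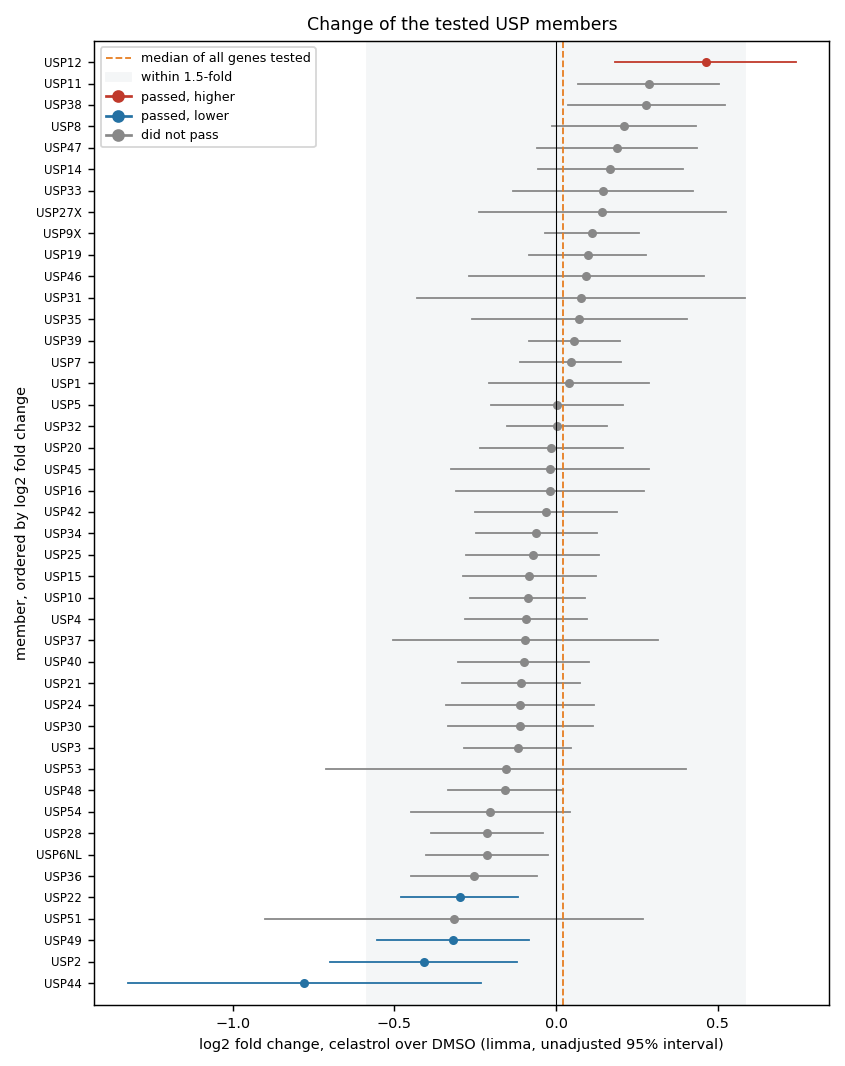
Log2 fold change of celastrol over DMSO for the 44 tested members, one row per member; points are limma estimates and lines are unadjusted 95% intervals (n = 3 libraries per group). The shaded band marks changes under 1.5-fold: 39 intervals lie inside it, and USP44 reaches furthest below at -0.78.

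The intervals bound most members closely. For 39 of 44 members (88.6%), the unadjusted 95% interval of the fold change lay within 1.5-fold in either direction, against 57.0% of all genes tested. The exceptions were USP12, USP44, USP2, USP51 and USP53. Under TPM, which moves all values up, 30 of 44 intervals lay within that bound. In 40 of 44 members (90.9%) the highest of the 6 libraries was under 1.5 times the lowest, against 56.6% of all genes tested. The summed FPKM of all 79 members was 519, 519 and 500 in the celastrol libraries and 516, 513 and 530 in the DMSO libraries, so the groups overlapped.

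USP12 was the member that rose. It is a small USP that works with the WD-repeat protein WDR48, also called UAF1, as do its near relatives USP46 and USP1. The gene lies on chromosome 13, 27066142 to 27171896, minus strand (GRCh38). Its FPKM was 8.29, 8.40 and 9.30 with celastrol and 5.31, 7.31 and 6.31 with DMSO, from 397 to 813 reads per library. All celastrol libraries lay above all DMSO libraries, and DMSO replicate 1 was the lowest. The mean was 8.67 ± 0.554 FPKM against 6.31 ± 0.999 (SD, n = 3 each), a 1.37-fold increase (log2 fold change 0.46, SE 0.12, adjusted p = 0.0248). It kept its call in 12 of 16 alternative settings. USP46 did not pass: it averaged 2.58 ± 0.296 and 2.42 ± 0.393 FPKM, and its interval ran from -0.27 to 0.46 on the log2 scale. The difference between these relatives was not tested.

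Of 7 tested members with roles in genome maintenance and the cell cycle, 1 passed as higher (USP12) and 0 as lower, against 15.3% and 14.2% of all genes tested, with a median log2 fold change of 0.04. The 3 cofactors listed for USP12, WDR48, WDR20 and DMWD, all lay in overlapping ranges and 0 of 3 passed. WDR48 was at 9.78, 9.92 and 9.46 FPKM with celastrol and 8.78, 10.8 and 10.5 with DMSO. USP1, which takes ubiquitin off FANCD2 and PCNA in DNA repair, was at 24.1, 24.4 and 23.0 FPKM with celastrol and 19.8, 26.4 and 23.7 with DMSO. The DMSO libraries enclosed the celastrol ones, and USP1 did not pass (log2 fold change 0.04, SE 0.11, adjusted p = 0.803). Of the 6 genes listed around its targets, FANCD2, FANCI and UBE2T were lower and 0 were higher. Of all genes tested, 14.2% were lower and 15.3% higher. The call of UBE2T was kept in 6 of 16 alternative settings. FANCD2 fell from 19.7 ± 0.925 to 14.8 ± 1.47 FPKM, and PCNA averaged 109 FPKM with celastrol and 103 with DMSO without passing.

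The 5 members with a call are shown with the stretch before a RefSeq start site where the promoter table holds one; USP44 has no entry. Each sequence is on the gene's strand, 5′ to 3′, and bases in annotated exons were left out. Capitals mark GGGCGG (the GC box), TGACGT (the core of the cAMP response element) or CCAAT on either strand. The coordinates are GRCh38.p14: chr13:27171897-27172061 for USP12, chr17:21043040-21043261 for USP22, chr11:119364209-119364458 for USP2 and chr6:41895376-41895625 for USP49, all minus strand. The USP2 start lies 17518 bases and the USP22 start 749 bases inside the gene from its outermost annotated 5′ end.
USP12: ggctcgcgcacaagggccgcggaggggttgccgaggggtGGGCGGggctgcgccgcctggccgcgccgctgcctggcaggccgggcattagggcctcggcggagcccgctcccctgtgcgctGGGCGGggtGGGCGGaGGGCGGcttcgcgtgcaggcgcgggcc
USP22: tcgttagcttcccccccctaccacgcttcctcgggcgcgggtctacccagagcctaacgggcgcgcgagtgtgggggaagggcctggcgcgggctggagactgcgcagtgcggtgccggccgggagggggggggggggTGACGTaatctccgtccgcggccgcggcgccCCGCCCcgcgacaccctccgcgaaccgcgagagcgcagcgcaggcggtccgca
USP2: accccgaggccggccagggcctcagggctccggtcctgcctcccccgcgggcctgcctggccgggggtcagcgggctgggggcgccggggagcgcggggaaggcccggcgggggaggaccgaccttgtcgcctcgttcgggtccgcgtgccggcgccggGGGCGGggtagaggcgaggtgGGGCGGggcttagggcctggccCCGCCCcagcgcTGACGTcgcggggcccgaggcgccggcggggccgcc
USP49: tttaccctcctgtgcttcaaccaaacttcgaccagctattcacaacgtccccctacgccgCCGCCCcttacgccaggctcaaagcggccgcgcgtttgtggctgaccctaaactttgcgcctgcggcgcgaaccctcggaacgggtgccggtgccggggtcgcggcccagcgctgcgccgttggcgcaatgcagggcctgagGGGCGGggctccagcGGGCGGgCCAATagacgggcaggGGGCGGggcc
Over the whole 250 bases before the start, USP12 held 6 GC boxes and no TGACGT. USP22 held 2 GC boxes and USP2 held 3, with 1 TGACGT each. USP49, which also fell, held 4 GC boxes and no TGACGT. A further USP49 window that is not shown, chr6:41895139-41895388, held 1 GC box and no TGACGT. The USP2 match also fits TGACNNNGC, the core of the antioxidant response element, which overlaps it. The GC box stood in 31 of the 36 tested members with an entry (35 of their 48 windows, 72.9%) and in 42.6% of all 35116 windows. The 35116 windows were not limited to genes that reached the minimum for testing, so the sets are unlike. TGACGT stood in 5 of those 48 windows (10.4%) and in 7.10% of all. Besides USP2 and USP22, the windows with it were those of USP8, USP36 and USP54, which have no call. For GAANNTTC, a pair of heat shock element units, the values were 2.08% and 5.78%, for TGACNNNGC 8.33% and 10.9%, for CCAAT 25.0% and 32.0%, and for CACGTG, the E box, 6.25% and 6.34%. A match describes letters only and does not show that a factor binds.

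Of the 4 members that fell, 3 are on the list for chromatin and transcription, which holds 12 of the 44 tested members. None of the 3 passed as lower under TPM or when scaled to listed reads. USP22 is the enzyme of the SAGA coactivator that removes ubiquitin from histone H2B, and USP44 and USP49 are also known to act on H2B. USP22, on chromosome 17 at 20999593 to 21043760, was the second most abundant member, with 3324 to 4174 reads per library. Its FPKM was 33.2, 32.3 and 29.8 with celastrol and 39.9, 36.3 and 41.2 with DMSO, without overlap. The mean fell from 39.1 ± 2.57 to 31.8 ± 1.75 FPKM (SD, n = 3), a 1.23-fold decrease (log2 fold change -0.30, SE 0.08, adjusted p = 0.0254). Under TPM USP22 lay at -0.06 (adjusted p = 0.574). CCDC144NL-AS1, an antisense gene that overlaps USP22, averaged 4.74 and 5.98 FPKM, and without known strand its reads may not be told apart from those of USP22.

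USP44, on chromosome 12 at 95516560 to 95551490, showed the largest change of the tested members. Its mean was 0.839 FPKM with celastrol and 1.53 with DMSO, so it met the minimum mean of 1 FPKM through the DMSO libraries. With no filter on low values USP44 did not pass (limma adjusted p = 0.0611). It was at 0.882, 0.816 and 0.817 FPKM with celastrol and 1.26, 1.49 and 1.82 with DMSO. The celastrol libraries held 73 to 75 reads and the DMSO libraries 98 to 146, so all celastrol values lay below all DMSO values. The mean was 1.82-fold lower with celastrol (log2 fold change -0.78, SE 0.24, adjusted p = 0.0413), with an interval from -1.32 to -0.23. USP49, on chromosome 6 at 41789896 to 41895361, was at 3.20, 3.20 and 2.98 FPKM against 3.58, 3.91 and 4.30. Its groups did not overlap, and it fell 1.26-fold (log2 fold change -0.32, SE 0.10, adjusted p = 0.0495), a call kept in 2 of 15 alternative settings. USP22 kept its call in 9 of 16 and USP44 in 6 of 15.

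**Figure D2:**
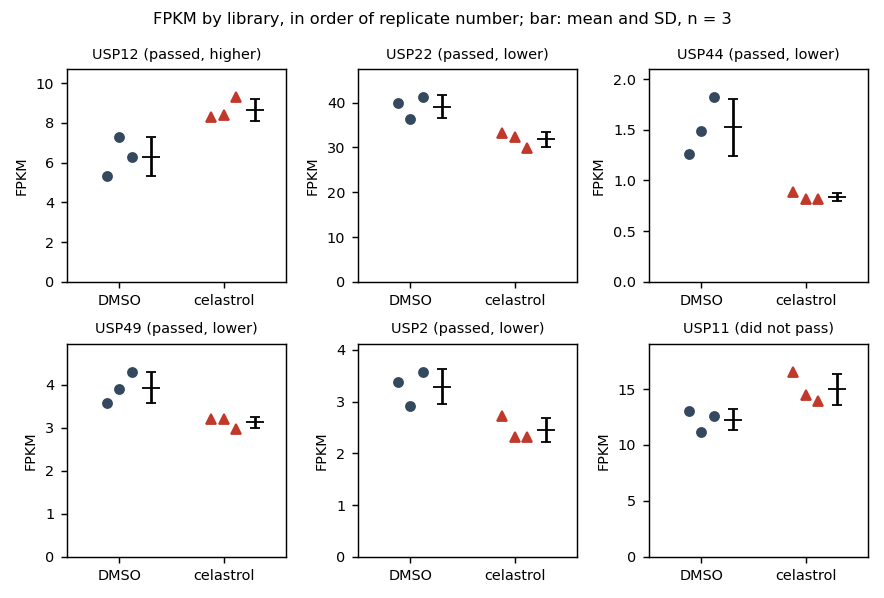
FPKM in each library for the 5 members with a call and for USP11, which missed the threshold; points are libraries in order of replicate number, and bars show the mean and SD (n = 3). In every panel the celastrol and DMSO libraries do not overlap.

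Of the 12 members listed for chromatin and transcription, all 12 were tested, 3 passed as lower and 0 as higher, with 9 of 12 below 0 and a median log2 fold change of -0.11. The same values for all genes tested were 14.2%, 15.3% and 0.02, and 47.4% of all genes lay below 0. The other members of the list were not alike. USP11, a nuclear relative of USP4 and USP15, was at 16.5, 14.5 and 13.9 FPKM with celastrol and 13.0, 11.2 and 12.5 with DMSO. Its groups did not overlap, yet it missed the threshold (log2 fold change 0.29, SE 0.09, adjusted p = 0.0544). USP11 passed as higher in 5 of 16 alternatives, namely TPM, scaling to listed reads or to nuclear reads (those outside mitochondrial genes), limma-voom and a minimum mean of 5 FPKM. USP36, a nucleolar enzyme, was at 8.69, 7.96 and 7.51 FPKM against 10.1, 9.03 and 9.75, also without overlap (log2 fold change -0.25, SE 0.08, adjusted p = 0.0554). It passed as lower in 3 of 16 alternatives, namely a minimum mean of 5 FPKM, quantile normalization and without DMSO replicate 2. USP3, which acts on histone H2A, lay in a narrow range, at 5.17 to 5.44 with celastrol and 5.63 to 5.84 with DMSO. USP7, which stabilises the ligase MDM2, averaged 22.9 ± 0.646 and 22.2 ± 0.995 FPKM with overlapping libraries. USP16 and USP21 averaged 11.2 and 14.1 FPKM with celastrol and 11.4 and 15.3 with DMSO.

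The close relatives of USP22 did not pass. USP27X lay at 1.52 to 1.72 FPKM with celastrol and 1.36 to 1.57 with DMSO, and USP51 averaged 0.973 ± 0.191 and 1.23 ± 0.147 FPKM, from 50 to 86 reads per library for these genes. Their intervals were wide, from -0.24 to 0.52 and from -0.90 to 0.27, so a fall like that of USP22 lies inside the interval of USP51 and just outside that of USP27X. Among genes of the SAGA deubiquitinase module, 4 of 7 rows were tested and ENY2, the small subunit that activates USP22, rose from 6.88 ± 0.769 to 8.58 ± 0.526 FPKM (adjusted p = 0.0453), a call kept in 8 of 16 alternative settings. ATXN7L3, the other activating subunit, averaged 20.5 and 19.5 FPKM and did not pass. Of 8 ligases and partners that attach ubiquitin to histones, 1 was higher and 1 lower, against 15.3% and 14.2% of all genes tested. UBE2A rose 1.27-fold, and RNF20, the H2B ligase, was 1.18-fold lower, with its call kept in 6 of 16 settings. Among genes around USP7, CDKN1A, the p21 inhibitor of cell cycle kinases, went from 4.63 ± 0.211 to 7.96 ± 0.619 FPKM (adjusted p = 0.000973), and DNMT1, the maintenance DNA methyltransferase, fell from 44.7 ± 2.90 to 32.7 ± 3.89 (adjusted p = 0.0137). TRIP12 was also higher and GMPS lower, with the call of GMPS kept in 6 of 16 alternative settings, while DAXX, UHRF1 and MDM2 did not pass.

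USP2, an enzyme known for stabilising cyclin D1 and for circadian regulation, was the remaining member that fell. It lies on chromosome 11, 119355215 to 119381726. Its FPKM was 2.72, 2.31 and 2.32 with celastrol and 3.38, 2.91 and 3.57 with DMSO, from 174 to 241 reads per library. The groups did not overlap, and the lowest DMSO library was close to the highest celastrol library. The mean was 1.34-fold lower (log2 fold change -0.41, SE 0.12, adjusted p = 0.0424), a call kept in 6 of 15 alternative settings.

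USP20, USP22, USP5, USP10, USP39, USP14, USP48, USP1, USP7 and USP19 held the 10 highest means and 56.1% of the summed FPKM of the family; of these 10, USP22 alone passed, against 29.5% of all genes tested. Under TPM, 5 of the 10 passed as higher, against 5266 of all 12685 genes tested. These were USP5, USP7, USP14, USP19 and USP39, with limma adjusted p-values from 0.00495 to 0.0358. Some of the 10 overlap a gene on the opposite strand whose reads may not be told apart: C9orf78 for USP20 (25.6 and 18.5 FPKM), THOC1 for USP14 (5.97 and 7.12) and TMEM150A for USP39 (9.21 and 6.47, celastrol first). USP20, on chromosome 9, was at 38.4, 37.3 and 37.8 FPKM with celastrol and 42.7, 33.4 and 39.2 with DMSO. The DMSO libraries spread around the celastrol ones (log2 fold change -0.01, SE 0.10, adjusted p = 0.920). Its relative USP33 averaged 14.6 ± 0.346 and 13.3 ± 2.17 FPKM. USP5, which disassembles free ubiquitin chains, averaged 33.4 ± 1.24 and 33.4 ± 3.43 FPKM, with an interval from -0.20 to 0.21. Its relative USP13 was at 0.254 to 0.335 FPKM with celastrol and 0.247 to 0.326 with DMSO, below the minimum for testing.

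USP14 sits on the proteasome and trims chains from its substrates. It was at 28.3, 29.1 and 27.6 FPKM with celastrol and 22.5, 28.8 and 24.7 with DMSO, so that DMSO replicate 2 overlapped the celastrol range. USP14 did not pass (log2 fold change 0.17, SE 0.10, adjusted p = 0.223), and passed without DMSO replicate 2 (0.0336), under TPM (0.0172) and with limma-voom (0.0310). Its adjusted p ranged from 0.0172 to 0.467 over 16 alternatives. UCHL5 and PSMD14, the other deubiquitinases of the proteasome, averaged 18.0 and 17.5 FPKM with celastrol and 16.3 and 18.5 with DMSO, and neither passed. None of the 4 ubiquitin genes passed, against 29.5% of all genes tested. UBB, the highest of them, was at 228, 253 and 255 FPKM with celastrol and 228, 181 and 210 with DMSO.

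USP10, which binds the stress granule proteins G3BP1 and G3BP2, was at 33.2, 32.4 and 29.7 FPKM against 36.1, 32.2 and 33.0, with overlap (log2 fold change -0.09, SE 0.08, adjusted p = 0.422). G3BP2 was higher (log2 fold change 0.26, adjusted p = 0.0168), and G3BP1 did not pass. USP39, a splicing factor with a USP fold that lacks protease activity, was at 33.7, 32.7 and 33.5 FPKM against 32.7, 31.3 and 32.1. The highest DMSO library lay just under the lowest celastrol library, and the estimate was 0.06 with an interval from -0.08 to 0.20 (adjusted p = 0.519). USP48 averaged 23.4 ± 0.418 and 26.1 ± 2.04 FPKM, and passed as lower without DMSO replicate 1 (adjusted p = 0.0374) but not with all libraries (0.163).

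**Figure D3:**
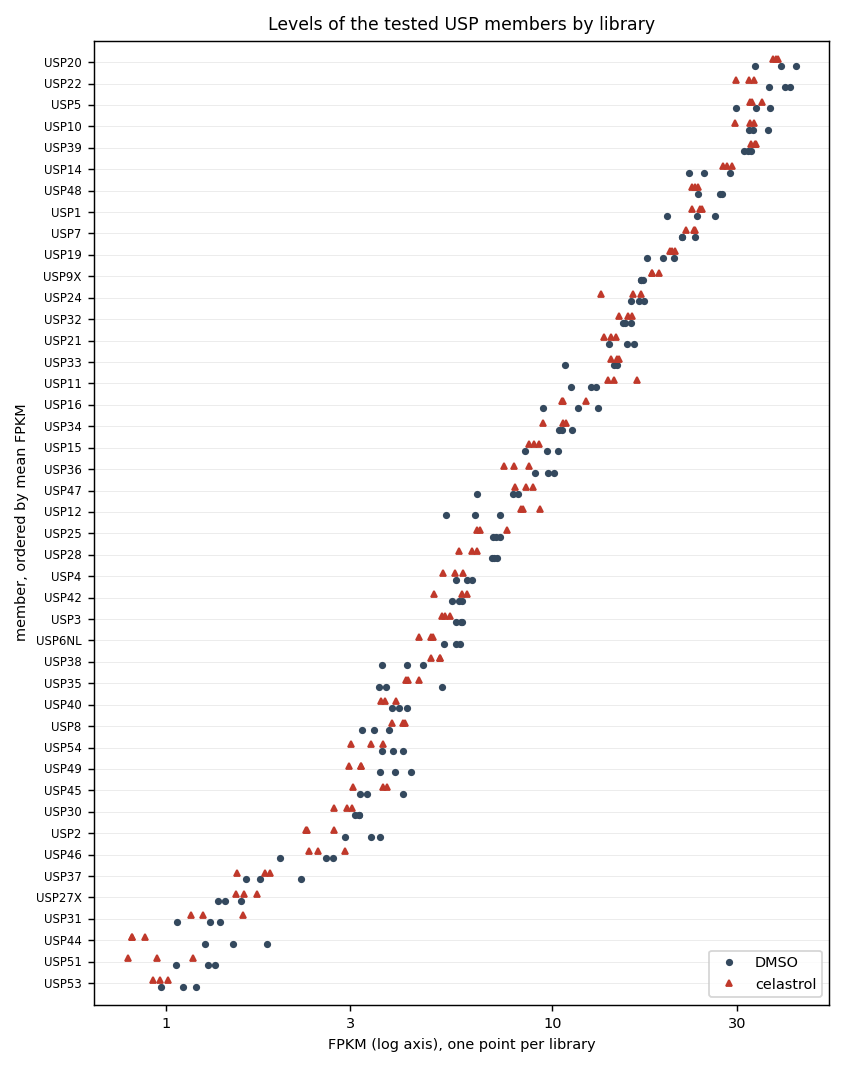
FPKM of the 44 tested members on a log axis, one point per library, DMSO as circles and celastrol as triangles, ordered by mean. Levels run from USP20 near 38.1 FPKM down to USP53 near 1.03, and in most rows the celastrol and DMSO points lie among each other.

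Members listed for mitochondria, endoplasmic reticulum, endosomes and autophagy gave 1 call among 11 tested (9.09%, against 29.5% of all genes tested). That call was of USP2, which is described above by other roles. USP9X, a large enzyme encoded on the X chromosome that is known to stabilise MCL1, was at 18.1, 18.9 and 18.1 FPKM with celastrol and 16.9, 16.9 and 17.2 with DMSO, without overlap. The difference was small (log2 fold change 0.11, SE 0.06, adjusted p = 0.215), although USP9X passed in 3 of 16 alternatives (TPM, listed reads and limma-voom). USP8, the endosomal enzyme that spares receptors from lysosomal breakdown, was at 3.85, 4.16 and 4.12 FPKM against 3.22, 3.78 and 3.45, also without overlap (log2 fold change 0.21, adjusted p = 0.137). RNF41, a ligase that USP8 stabilises, fell 1.25-fold to 8.60 ± 0.435 FPKM, and HGS, STAM and STAM2 did not pass. USP30, on the outer mitochondrial membrane where it opposes Parkin, averaged 2.90 ± 0.162 and 3.14 ± 0.0509 FPKM (adjusted p = 0.418). TOMM20, an import receptor of that membrane, fell from 196 ± 19.8 to 147 ± 13.3 FPKM (adjusted p = 0.0191), with its call kept in 9 of 16 settings. USP19, USP32, USP25 and USP35 overlapped between groups, with averages of 20.5, 15.5, 6.84 and 4.31 FPKM with celastrol and 19.2, 15.5, 7.17 and 4.15 with DMSO.

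Of 8 tested members listed for signalling and other roles, and of 3 listed together (USP39, USP53 and USP54), 0 passed in limma. Of all genes tested, 29.5% passed. The medians of these lists were -0.09 and -0.15. At an unadjusted p under 0.05, USP38 was the member of these lists that passed, against 41.8% of all genes tested. USP28, on the genome maintenance list and known for stabilising MYC, was at 5.73, 6.37 and 6.19 FPKM with celastrol and 6.97, 7.17 and 7.08 with DMSO. These groups did not overlap, and USP28 missed the threshold in the test (log2 fold change -0.21, SE 0.07, adjusted p = 0.0665) and under all 16 alternative settings. Its relative USP25 had an estimate of -0.07. USP38 was at 5.13, 5.11 and 4.86 FPKM against 3.62, 4.20 and 4.63, without overlap (log2 fold change 0.28, adjusted p = 0.0811). The celastrol values were tight, and the DMSO values spread toward them. USP6NL, the Rab regulator that the name rule takes in, averaged 4.77 ± 0.220 and 5.54 ± 0.281 FPKM (adjusted p = 0.0864); without it the median log2 fold change of the 43 remaining tested members was -0.03.

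In all, the celastrol and DMSO libraries did not overlap for 15 of 44 tested members (34.1%), against 47.3% of all genes tested. Celastrol lay above DMSO in 6, namely USP12, USP11, USP38, USP8, USP9X and USP39, against 25.3% of all genes tested. It lay below in 9, namely USP44, USP2, USP49, USP22, USP36, USP28, USP6NL, USP3 and USP30, against 22.0% of all genes. The 10 without a call had adjusted p-values from 0.0544 to 0.519. The other 29 overlapped, with log2 fold changes from -0.32 for USP51 to 0.19 for USP47 and adjusted p-values from 0.163 to 0.981. They include USP4, USP15, USP24, USP31, USP34, USP37, USP40, USP42, USP45, USP53 and USP54. Within DMSO, replicate 1 was the lowest library for 21 of 44 members (47.7%), against 39.3% of all genes tested, and within celastrol, replicate 3 was the lowest for 25 of 44 (56.8%), against 35.9%.

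The remaining 35 members lay below the minimum mean of 1 FPKM and were not tested. They include all 26 USP17L genes, which are near-identical copies in clusters, so that reads can be shared between them and their levels are uncertain. Of these, 24 were listed at 0 in every library, USP17L2 had 3 reads in celastrol replicate 1, and USP17L3 had 1 read in DMSO replicate 1. USP9Y, USP26 and USP29 were listed at 0 as well; a count of 0 allows up to 3 reads, at most 0.0198, 0.0538 and 0.0572 FPKM, for counting error only. USP13 had 30 to 47 reads per library, USP6 0 to 8, USP43 0 to 4, USP50 0 to 2 and USP41 0 to 1. USP18, the enzyme that removes the ubiquitin-like protein ISG15, had 1 to 4 reads per library and 0.0279 to 0.119 FPKM. ISG15 itself was abundant, at 22.2, 26.9 and 32.3 FPKM with celastrol and 13.1, 11.1 and 13.5 with DMSO, a 2.16-fold increase (log2 fold change 1.09, adjusted p = 0.00181). UBA7, the enzyme that activates ISG15, rose 1.74-fold, and TRIM25, a target and ligase of that system, was 1.45-fold lower. In total 5 of the 11 listed genes of ISG15 conjugation and interferon response were tested, with 2 higher and 1 lower. The shares over all genes tested were 15.3% higher and 14.2% lower.

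**Figure D4:**
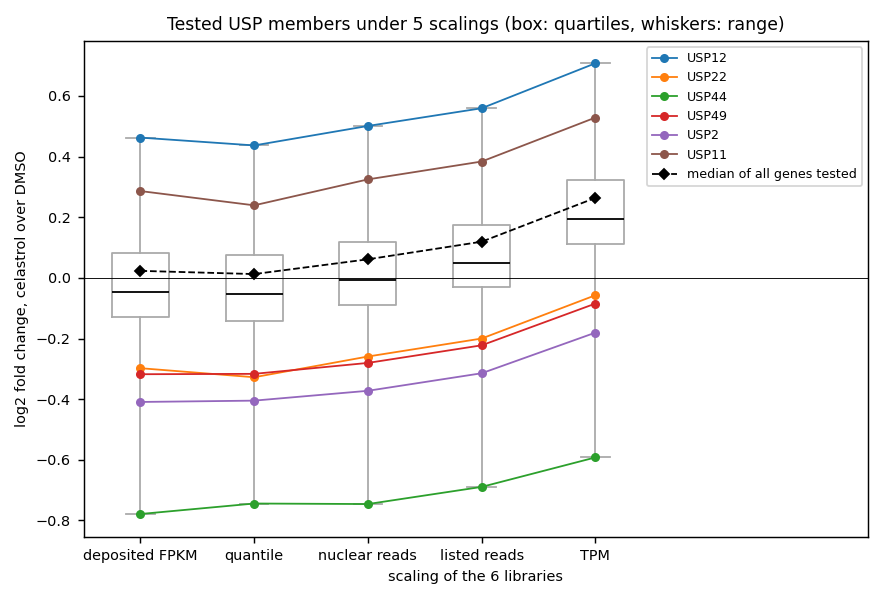
Log2 fold changes of the tested members under 5 scalings of the 6 libraries; boxes give quartiles and whiskers the range of the members, coloured lines follow 6 members, and diamonds the median of all genes tested. USP12 stays the highest and USP44 the lowest under each, and TPM lifts the median of all genes to 0.26.

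Among deubiquitinases of other families, TNFAIP3 and JOSD2 changed by more than any tested USP member. Of the 43 genes of these families, 35 were tested, with 6 higher and 5 lower (31.4%, against 29.5% of all genes tested). Their median log2 fold change was 0.10. TNFAIP3, or A20, an OTU enzyme that restrains NF-kappaB, was at 3.32, 3.12 and 2.72 FPKM with celastrol and 8.99, 8.59 and 8.54 with DMSO. It fell 2.85-fold (log2 fold change -1.48, adjusted p = 0.000116), with its call kept in 16 of 16 settings. JOSD2, a Josephin enzyme, was at 8.79, 9.79 and 9.66 FPKM against 5.60, 4.17 and 5.15, and rose 1.89-fold (adjusted p = 0.00163). Both groups of values were far apart, beyond the change of any tested USP member. OTUD3 fell 1.42-fold, and OTUD5 and OTULIN, which cuts linear chains, rose 1.24-fold and 1.25-fold. In the JAMM family of metalloproteases, STAMBP and MPND rose 1.26-fold and 1.34-fold, and the translation factor subunits EIF3F and EIF3H fell 1.40-fold and 1.21-fold. Of the enzymes with a USP fold under other names, PAN2, of the deadenylase complex, fell 1.42-fold. USPL1, which acts on SUMO, rose 1.34-fold, a call kept in 9 of 15 alternative settings, and CYLD averaged 1.38 and 1.33 FPKM without passing. None of the 2 tested UCH genes and 4 tested MINDY and ZUP1 genes passed in limma, where MINDY2 (adjusted p = 0.0506) and BAP1 (0.0586) came nearest. The tested UCH, JAMM, MINDY and ZUP1 genes, and those with a USP fold under other names, stayed within the USP range of -0.78 to 0.46. The difference between the families was not tested.

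**Figure D5:**
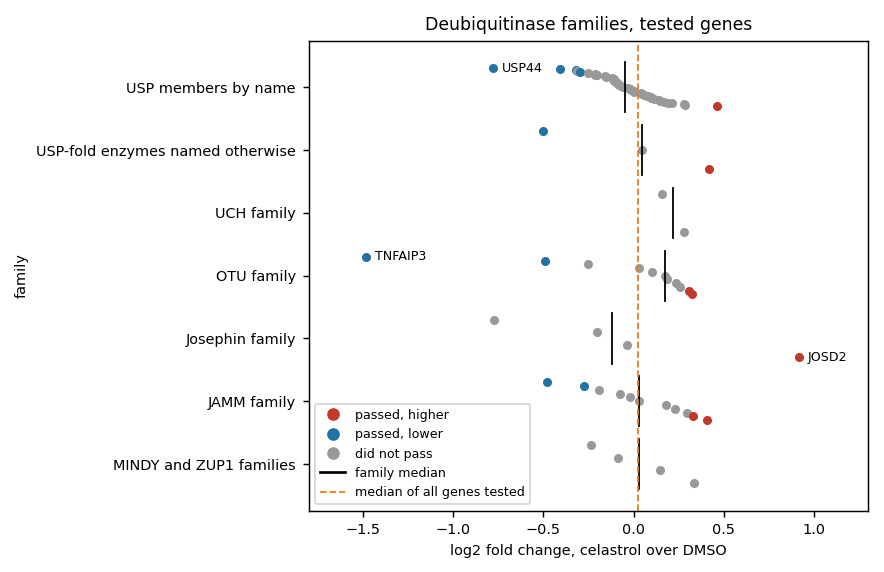
Log2 fold change of tested deubiquitinase genes by family, each point a gene, black bars the family medians and the dashed line the median of all genes tested (0.02). The 44 USP members lie between -0.78 and 0.46, while TNFAIP3 at -1.48 and JOSD2 at 0.92 lie outside that range.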

How the data were processed

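Gene expression in 6 libraries of SKM-1 cells (groups from the sample titles) came from 1 deposited table of FPKM. Per the submitters' processing notes HISAT2 2.0.5, featureCounts 1.5.0-p3 and GRCh38 (hg38) were used; their settings, the strand and the RNA selection are not known here. Multiplied by gene length and by a library total recovered from the values (0.963 to 1.05 times the listed reads), the deposited FPKM values gave whole reads (100%, tolerance 0.001 reads), which were used for depth and limma-voom. All 58735 identifiers and positions matched GENCODE release 29.

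Tests used limma 3.58.1 in R 4.3.3 (limma-trend, log2(FPKM + 0.1), mean of at least 1 FPKM, treatment as the single term, two-sided, Benjamini-Hochberg over all genes tested). Simulated data, with the same spread set for every gene, were used to test the code only. SD and folds between means are of FPKM. Called members, members whose groups do not overlap and the 10 of highest mean get a test value; of each list, up to 4 called genes, and others by level. Members and lists were chosen with earlier results of these data known. Pairs within a treatment differed by 4.01 to 13.4 in chi-square per gene (genes with at least 20 reads), so no library repeated another. The alternatives were pseudocounts, filters, scalings, limma-voom, a replicate block and each library left out; scaling to nuclear reads was added after seeing the data. Promoters are from RefSeq (GRCh38.p14), matched by symbol for 40 members. Results for some listed genes are not reported here.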

Additional observations from a re-analysis of the deposited data

How the results depend on the processing

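Depth limits USP44, USP27X and USP51, with 50 to 146 reads per library. Count tests on recovered reads (edgeR and DESeq2) were not run. Over all genes tested, higher calls numbered 5266 under TPM, 3024 scaled to listed reads and 3650 with limma-voom, and lower calls 813 under TPM, against 1947 and 1797; leaving out 1 library gave 1125 to 1937 higher and 987 to 1767 lower. For the USP members, calls higher and lower were 0 and 0 with no filter on low values (10 at an unadjusted p under 0.05 in limma), 2 and 2 with a minimum mean of 5 FPKM, 13 and 0 under TPM, 4 and 0 scaled to listed reads, 7 and 2 with limma-voom, and 2 and 3 scaled to nuclear reads; leaving out 1 library gave 0 to 2 higher and 0 to 3 lower. The members' median was 0.19 under TPM, 0.051 scaled to listed reads, -0.0081 scaled to nuclear reads and 0.051 with limma-voom, and -0.069 to -0.013 without 1 library. The share of members that passed was 0% with no filter on low values, against 8.33% of all genes tested. It was 14.3% against 38.3% with a minimum mean of 5 FPKM, and 29.5% against 47.9% under TPM. Scaled to listed reads it was 9.09% against 34.0%, with limma-voom 20.5% against 40.3%, and scaled to nuclear reads 11.4% against 30.9%. For single genes the cause of a change of sign was not tested beyond the shift of the median.

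Replicate numbers did not pair the libraries (correlations of deviations -0.016, -0.033 and 0.034 for numbers 1 to 3); with a replicate block 1 member was higher and 1 lower (USP12 and USP22).

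Of the 26 tested members below 0, 20 turned above 0 under TPM, 9 scaled to listed reads, 9 with limma-voom and 4 scaled to nuclear reads, and quantile normalization turned 2 below 0. Among the members given a test value in the report, signs turned under TPM for USP10 (0.15), USP20 (0.23), USP28 (0.025), USP3 (0.12), USP30 (0.13), USP48 (0.084) and USP6NL (0.024). Scaled to listed reads USP10 was at 0.010 and USP20 at 0.084, with limma-voom 0.0099 and 0.083, and scaled to nuclear reads USP20 was at 0.024. USP5 was at -0.025 under quantile normalization. Without 1 library, USP1 ranged from -0.071 to 0.13, USP5 from -0.075 to 0.073 and USP20 from -0.11 to 0.065.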

Other observations

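Rows named after USP genes but not protein-coding numbered 54, and 2 of them reached a mean of 1 FPKM; both were chosen after their values were seen. USP32P3, a transcribed pseudogene related to USP32 (chromosome 17, 20415547 to 20431008), was at 1.14, 0.985 and 0.709 FPKM with celastrol and 2.79, 2.94 and 3.32 with DMSO. It was 3.19-fold lower (limma log2 fold change -1.59, SE 0.20, adjusted p = 0.00155), with the call kept in 15 of 15 alternative settings, while USP32 itself averaged 15.5 FPKM in both groups. Reads can be shared between a pseudogene and its parent, so the level of USP32P3 is uncertain. USP46-AS1, a noncoding gene on the opposite strand beside USP46 (chromosome 4, 52659406 to 52661668), was at 1.87, 1.61 and 1.70 FPKM with celastrol and 0.663, 0.709 and 0.385 with DMSO. It was 2.95-fold higher (log2 fold change 1.45, SE 0.29, adjusted p = 0.00993), also in 15 of 15 alternative settings. Each gene met the minimum mean of 1 FPKM through its higher group: USP32P3 averaged 0.946 FPKM with celastrol, and USP46-AS1 0.586 with DMSO. At this level the minimum favours large changes, so their size cannot be ranked against the coding members.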
